A study of Homo sapiens with 2 samples.

Results

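The 9 genes described here are 7 enzymes of heme synthesis (ALAS1, ALAD, UROS, UROD, CPOX, PPOX and FECH) and 2 globin genes, HBA1 and HBG1, of the 58302 genes in the expression table. They were taken by gene symbol. Beside the pathway they belong to, they were chosen by their FPKM in these same 2 libraries, which was known when the set was made, so their levels and differences are given as a description and support no test. The study grew HL60-EIF2S3 cells, a stable derivative of the human promyelocytic leukemia line HL60 that carries an EIF2S3 transgene in a Tet-Off system, and sequenced RNA of 1 library without doxycycline, labelled DOX(-), and 1 library with doxycycline, labelled DOX(+). EIF2S3 encodes eIF2 gamma, a subunit of the factor that brings the initiator tRNA to the ribosome. In a Tet-Off system doxycycline switches the transgene off, so the labels make DOX(-) the overexpressing culture. Both groups carry the transgene, and they differ in doxycycline itself as well. The sources used here do not say whether the stable line is 1 clone, which promoter drives the transgene, or how much doxycycline was given and for how long.

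Levels are in FPKM, the fragments of a gene scaled to transcript length and library total. EIF2S3 had 132.9 FPKM without and 126.2 FPKM with doxycycline (ratio 1.05, counting interval 0.927 to 1.196 on the shortest annotated transcript and 1.017 to 1.090 on the longest). These nearly equal values do not show the labelled overexpression, so the groups are named below as the libraries with these labels. The FPKM steps of genes with 1 transcript gave 16577788 fragments for DOX(-) and 18519439 for DOX(+). Of the promyelocyte markers, ELANE, which encodes neutrophil elastase, was abundant at 396.4 and 299.4 FPKM. None of the 9 markers compared, of 10, was past the size rule explained below; the granule gene AZU1 was at 76.0 and 52.3 FPKM, RNASE2 at 106.3 and 141.2 FPKM, and the differentiation factor gene CEBPE was at 8.93 and 12.6 FPKM. MPO, the heme enzyme myeloperoxidase that usually defines this stage, was at only 0.274 and 0.469 FPKM, so that 1 defining marker of the labelled cell type was nearly absent. In each pair of values the library labelled DOX(-) comes first. With 1 library per condition there is no spread between cultures and no p-value, and intervals below are exact 95% intervals that cover counting error only.

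Heme is made by a chain of enzymes that starts and ends in mitochondria and passes through the cytosol. ALAS1 is the housekeeping form of the enzyme that controls the rate, and heme itself represses it, while ALAS2 is the form used by developing red cells. In neutrophil precursors heme serves enzymes such as myeloperoxidase, catalase and the cytochrome b of the NADPH oxidase. Globins carry heme in red cells, with HBA1 encoding an alpha chain and HBG1 a gamma chain of fetal hemoglobin. Scarce heme also activates EIF2AK1, the kinase HRI, which phosphorylates eIF2.

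Sequences bear on both groups of genes. The globin genes have near-identical copies, and the listed level of HBG1 or HBA1 depends on how fragments were divided between the copies. The coding sequences of HBG1 and HBG2 (444 bases with the stop codon, in the GENCODE release 29 transcripts) differ at 2 bases. Counted from the A of the start codon, with the HBG1 base first, these are C227T and C410G, and each changes a residue of the 147 in the chain. The 60 coding bases around each difference are shown with the differing bases in capitals, for positions 197 to 256 and then 380 to 439.
HBG1: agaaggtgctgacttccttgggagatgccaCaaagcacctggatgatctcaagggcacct
HBG2: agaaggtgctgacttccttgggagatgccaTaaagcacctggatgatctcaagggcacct
HBG1: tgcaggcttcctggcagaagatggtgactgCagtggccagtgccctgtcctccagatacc
HBG2: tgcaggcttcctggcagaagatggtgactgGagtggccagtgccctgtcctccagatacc

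The coding sequences of HBA1 and HBA2 (429 bases) did not differ at any base, so a fragment wholly inside them cannot be assigned to 1 gene. The copies differ after the stop codon, where 5 of the first 30 bases, in capitals here, are unlike.
HBA1: gctggagcctcggtGgccAtGcTtcTtgcc
HBA2: gctggagcctcggtAgccGtTcCtcCtgcc
Of all 50-base windows of the full-length HBA1 transcript, 81.6% also occur in the HBA2 transcript, and 50.1% of those of HBG1 occur in that of HBG2.

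The housekeeping and erythroid forms of the ALAS enzyme have different letters in their promoter windows. RefSeq promoter windows (GRCh38.p14, 250 bases before to 50 after the start) were found for 6 of the 7 enzymes. The motif TGCGCA, which reads the same on both strands and is the core of sites for the factor NRF1, occurred 2 times in the ALAS1 window, at -4 and 26 bases from the start, and in none of the other 5 enzyme windows or that of ALAS2. It was present in 8.24% of all 35116 windows. The motif AGATAA or its reverse complement TTATCT, the core of GATA factor sites, occurred 2 times in the CPOX window and 1 time in that of ALAS2. The ALAS2 match lay at -127 bases from the start, farther away than those of ALAS1. This motif was present in 10.3% of all windows. The 30 bases around these ALAS matches are shown with the motif in capitals, at chr3:52198065-52198094 and chr3:52198097-52198126 (plus strand) for ALAS1 and chrX:55031087-55031116 (minus strand) for ALAS2.
ALAS1: ctacgcggcgcgccTGCGCAgaagaaggca
ALAS1: gcccaaggcgcaTGCGCAgcggtcactccc
ALAS2: ctactttgggttTTATCTctagcaaggaag
A match describes these letters and says nothing of a factor's binding in these cells.

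None of the 6 enzymes of heme synthesis that were compared differed by 1.5-fold or more, while both globin genes were lower in DOX(-). Of the 9 genes, 8 reached 1 FPKM in at least 1 library and entered the comparison; PPOX did not. By a size rule, a log2(FPKM + 1) difference of 1.5-fold or more, none of these 8 was higher in DOX(-) and 2 were lower, HBA1 and HBG1. Over all 11525 genes at this minimum, 3.11% were higher and 4.06% lower by the same rule. Since the genes were chosen with these values known, nothing is read from their count. The median log2(FPKM + 1) difference was 0.03 over the 6 enzymes compared, 3 of them above 0 and 3 below, against -0.02 over all genes.

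ALAS1 (ENSG00000023330, chromosome 3, 52198086 to 52214327, GRCh38), which joins glycine and succinyl-CoA to make aminolevulinic acid in mitochondria, was the most abundant of the enzymes. Its level was 35.2 FPKM in the first library and 29.3 FPKM in the other. Its level in DOX(-) was above that of 92.4% of the 9283 protein-coding genes compared, and in DOX(+) above 90.3%. The log2(FPKM + 1) difference was 0.26 and the plain FPKM ratio 1.1999. Whether this ratio exceeds counting error depends on the transcript taken to estimate fragments: the interval was 0.980 to 1.47 with the shortest annotated transcript (350 nucleotides) and 1.11 to 1.29 with the longest (2430). The erythroid form ALAS2 was listed at 0 and at 0.0516 FPKM. Its counting intervals on the shortest transcript reached up to 0.469 FPKM in DOX(-) and 0.522 FPKM in DOX(+), far under those of ALAS1, which began at 30.5 and 25.3 FPKM.

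The cytosolic enzymes followed at lower levels. ALAD (ENSG00000148218, chromosome 9, 113386317 to 113401333), which condenses aminolevulinic acid to porphobilinogen and is a known target of lead poisoning, was at 3.43 and 3.70 FPKM, a ratio of 0.928 (interval 0.554 to 1.54). UROS (ENSG00000188690, chromosome 10, 125784980 to 125823248), which closes the ring as uroporphyrinogen III, was at 5.09 and 4.47 FPKM, a ratio of 1.14 (0.700 to 1.85). UROD (ENSG00000126088, chromosome 1, 45012147 to 45015575), which removes carboxyl groups to give coproporphyrinogen III, was at 12.3 and 11.5 FPKM, a ratio of 1.07 (0.805 to 1.42). The intervals of all 3 ratios held equal levels with the shortest and with the longest transcript alike.

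The late enzymes work in mitochondria. CPOX (ENSG00000080819, chromosome 3, 98521132 to 98593723), which oxidises coproporphyrinogen in the intermembrane space, was at 8.06 and 9.27 FPKM. Its ratio of 0.870 had an interval of 0.628 to 1.201 with the shortest transcript and of 0.758 to 0.997 with the longest, so equal levels lay inside the first and just outside the second. PPOX (ENSG00000143224, chromosome 1, 161166410 to 161178013), which makes protoporphyrin IX, was the least abundant enzyme at 0.969 and 0.688 FPKM. Its ratio of 1.41 rested on an estimated 7.60 and 6.03 fragments with the shortest transcript, and its interval of 0.420 to 4.97 was the widest among the enzymes. Exons of PPOX overlap those of B4GALT3 on the opposite strand (5.61 and 4.09 FPKM), and whether the libraries kept strand was not given in the sources used here. FECH (ENSG00000066926, chromosome 18, 57548283 to 57586772), which inserts iron into protoporphyrin to finish heme, was at 9.34 and 9.57 FPKM, a ratio of 0.976 (0.713 to 1.33). The sign of its small log2 difference, -0.03, turned under upper-quartile scaling.

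**Figure D1:**
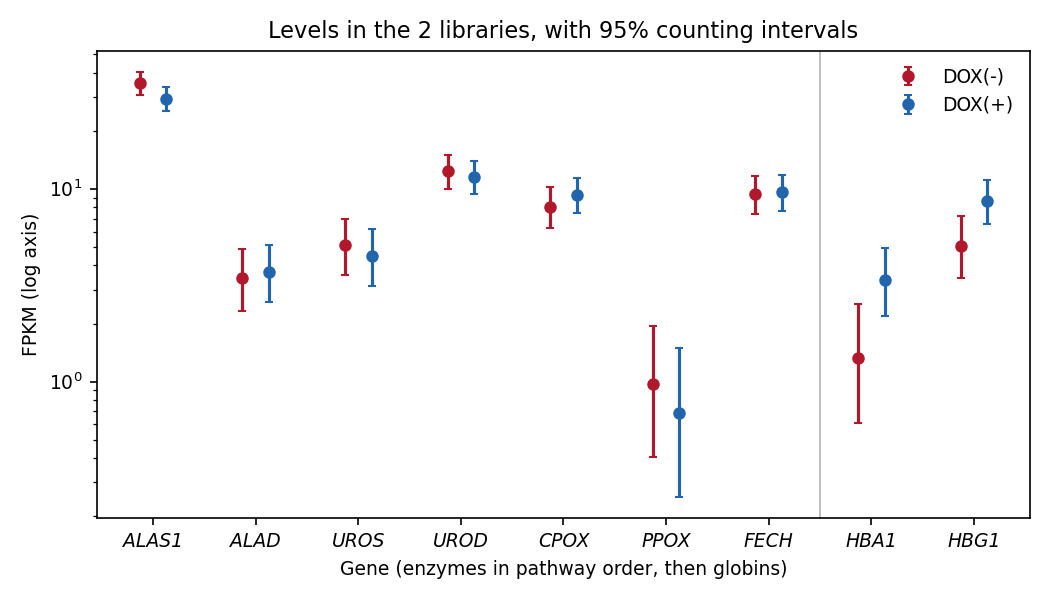
FPKM (log axis) of the 7 enzymes in pathway order and of the 2 globin genes in the libraries labelled DOX(-) and DOX(+), 1 point per library, with bars for the exact 95% counting interval on the shortest annotated transcript. ALAS1 stands highest in both libraries and PPOX lowest, and the largest gaps between the libraries are those of HBA1 (1.33 and 3.36 FPKM) and HBG1 (5.06 and 8.60 FPKM).

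The order of the enzymes by FPKM, a scale per transcript length, was the same in both libraries: ALAS1, UROD, FECH, CPOX, UROS, ALAD and PPOX. ALAS1 stood apart, at 2.86 times the UROD level in DOX(-) and 2.55 times in DOX(+). The counting intervals of the levels of UROD and FECH overlapped in both libraries, as did those of FECH and CPOX and of UROS and ALAD. Those of CPOX and UROS overlapped in DOX(-) and not in DOX(+). PPOX lay apart from ALAD in both. The FPKM of the 7 enzymes summed to 74.3 and 68.5, of which ALAS1 made up 47.3% and 42.8%. Split by place, 2 of 3 cytosolic enzymes had a log2 difference above 0 and 1 of the 3 mitochondrial enzymes compared did, so neither place had a common direction.

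HBA1 (ENSG00000206172, chromosome 16, 176680 to 177522) had 1.33 FPKM without doxycycline and 3.36 FPKM with it. The log2(FPKM + 1) difference was -0.90, and by plain FPKM the level in DOX(+) was 2.52 times that in DOX(-). These values rested on an estimated 9.06 and 25.5 fragments with the shortest transcript (410 nucleotides) and 14.9 and 41.9 with the longest (674). The counting interval of the DOX(-) over DOX(+) ratio, 0.164 to 0.875 or 0.204 to 0.732, left out equal levels either way. The level itself was low, above that of 9.07% of protein-coding genes compared in DOX(-) and of 34.2% in DOX(+).

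HBG1 (ENSG00000213934, chromosome 11, 5248083 to 5249892) was the more abundant of the globin genes, at 5.06 and 8.60 FPKM. Its log2(FPKM + 1) difference was -0.66, and the plain ratio was 0.588, with an interval of 0.368 to 0.924 on the shortest transcript (30.9 and 58.8 fragments) and 0.469 to 0.735 on the longest (122.8 and 233.2 fragments). Neither globin gene was past a 2-fold rule on the log2(FPKM + 1) scale, and with a pseudocount of 5 FPKM neither was past the 1.5-fold rule. Among the 7914 genes whose higher library lay between 1 and 10 FPKM, as for both globins, a range chosen after their values were seen, 4.61% were at least 1.5-fold lower in DOX(-). With the added demand that the interval leave out equal levels, which both globins met, the share was 2.84% of 7898 genes with an annotated length. Since both globins were chosen with their values known, nothing is read from either share.

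**Figure D2:**
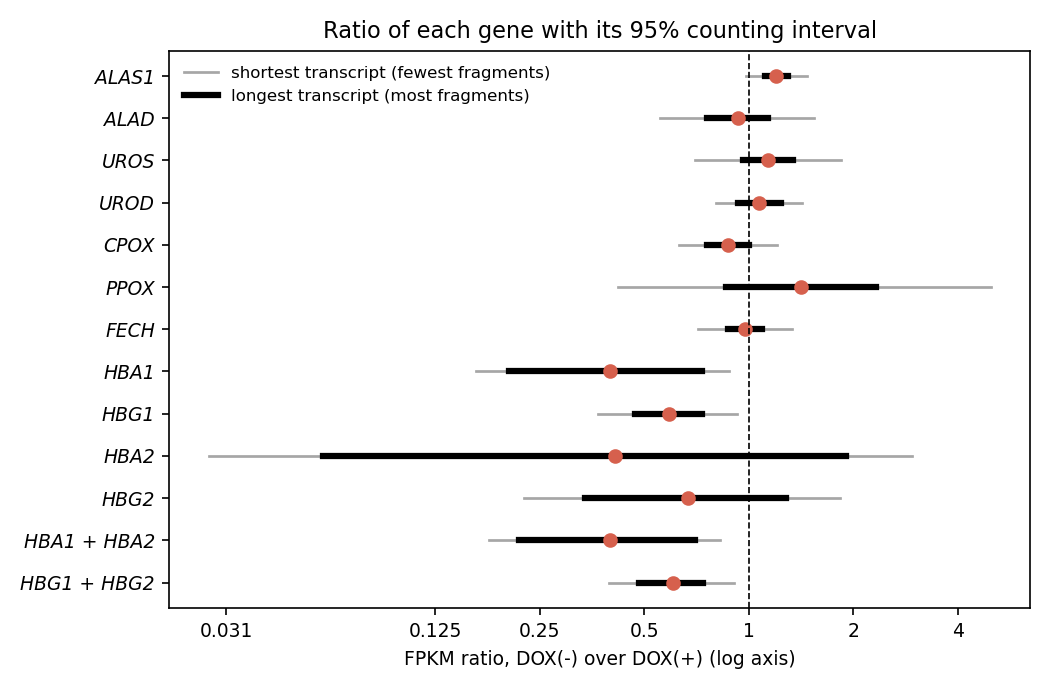
Plain FPKM ratio of DOX(-) over DOX(+) (log axis) for each gene, for the copies HBA2 and HBG2 and for the sums of each pair of copies, with exact 95% counting intervals on the shortest (thin grey) and longest (thick black) annotated transcript. The intervals of HBA1, HBG1 and both sums lie below 1, and those of HBA2 and HBG2 alone include 1.

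Summing each pair of copies lessens the question of how fragments were divided between them. It does not remove it, since FPKM is scaled to transcript length and the copies differ in annotated length. HBA2 was listed at 0.246 and 0.597 FPKM and HBG2 at 1.41 and 2.103 FPKM, and the ratio intervals of both copies held equal levels (0.0278 to 2.95 and 0.225 to 1.83). HBA1 and HBA2 together stood at 1.58 and 3.96 FPKM, a ratio of 0.399 (0.179 to 0.825). HBG1 and HBG2 together stood at 6.46 and 10.7 FPKM, a ratio of 0.604 (0.395 to 0.904). HBA1 took 84.4% and 84.9% of its pair, and HBG1 took 78.3% and 80.4%, so the listed division between copies was nearly the same in both libraries while the sums were lower in DOX(-). The gamma sum was 4.09 times the alpha sum in DOX(-) and 2.71 times in DOX(+). HBG2 shares exons on the same strand with HBE1 and other gene models, which adds to the uncertainty of its value.

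Other globins were hardly present. Of 12 further genes for globins and a globin chaperone, 6 were listed at 0 in both libraries: HBB, the adult beta chain, the embryonic zeta gene HBZ, HBM, myoglobin (MB), neuroglobin (NGB) and AHSP, the chaperone of alpha globin. For HBB, a count of 0 allows a level of up to 0.240 FPKM in DOX(-) and 0.215 FPKM in DOX(+) on its longest transcript, and up to 0.567 and 0.508 FPKM on its shortest. The embryonic gene HBE1 was at 0.0347 and 0.155 FPKM, under the floor of 3 fragments in both libraries. HBG2 alone reached 1 FPKM, and none was past the size rule. Of the 5 genes above 0 in at least 1 library and under 1 FPKM in both, 4 were higher by plain FPKM in DOX(+). Among all 4632 protein-coding genes in this range the share was 57.8%. The summed fragments of these globin genes were an estimated 3.07 and 9.65 on the shortest transcripts. Their ratio of 0.355 had an interval of 0.0640 to 1.38, and equal levels also lay inside that on the longest (0.140 to 1.175). The pseudogene HBBP1 of the beta globin cluster, named after its value was seen, was at 0.202 and 0.664 FPKM.

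Of 19 regulators of globin genes, 13 were compared and none was past the size rule. The median log2 difference was -0.04, against -0.02 over all genes. Of the 13, 10 were below 0, beside 6152 of all 11525 genes compared. Some of the 10 lay so near 0 that their sign turned under a scaling. KLF1, the erythroid factor that activates globin genes, was at 2.01 and 2.58 FPKM (ratio 0.779, interval 0.539 to 1.12). BCL11A, a repressor of gamma globin, was at 1.54 and 1.75 FPKM (ratio 0.880, 0.333 to 2.26). The largest difference was that of KLF10, at 7.87 and 11.9 FPKM. Its plain ratio was 0.661 (0.583 to 0.748), and its log2 difference of -0.54 passed the size rule when the libraries were rescaled without mitochondrial genes. The nuclear receptor gene NR2C1, a part of a repressor complex on embryonic and fetal globin genes, was at 2.23 and 2.96 FPKM, and MBD2, a reader of DNA methylation, was at 11.8 and 13.6 FPKM.

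Markers of red cell precursors split by level. Of 19 markers, 6 reached 1 FPKM, and none of these was past the size rule (median log2 difference -0.00). GYPC, which other blood cells also express, was at 64.7 and 68.5 FPKM, EPB41, a protein of the membrane skeleton, at 7.90 and 7.67 FPKM and XK at 7.93 and 9.32 FPKM. The other 13 were above 0 in at least 1 library and under 1 FPKM in both, and 11 of them were higher by plain FPKM in DOX(+). Among all 4632 protein-coding genes in this range, 57.8% were higher in DOX(+), the deeper library. Summed over the 13 genes, the levels were 1.61 and 3.09 FPKM, or an estimated 23.2 and 51.3 fragments on the shortest transcripts. The ratio was 0.505 after scaling to library totals (0.295 to 0.840). Most of the gap between the summed FPKM lay in RHAG, CA1 and HEMGN, so the sum does not describe the 13 genes alike.

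The genes with the largest gaps in this range, named after their values were seen, were RHAG, a glycoprotein of the Rh complex on red cells, at 0.0908 and 0.704 FPKM, CA1, the red cell carbonic anhydrase, at 0.245 and 0.679 FPKM, and HEMGN, a nuclear protein of erythroid precursors, at 0.0716 and 0.363 FPKM. The ratio of HEMGN, 0.197, had an interval of 0.0312 to 0.746, and that of RHAG, 0.129, one of 0.00236 to 0.999 on the shortest transcript and 0.0253 to 0.418 on the longest. The interval for CA1 held equal levels on the shortest transcript (0.0121 to 3.41) and left them out on the longest (0.167 to 0.721). Band 3 (SLC4A1), GYPB and EPB42, also named after their values were seen, were listed at 0 in DOX(-) and at 0.0114, 0.117 and 0.0849 FPKM in DOX(+), at most 3.88 estimated fragments on the longest transcript. The markers that were higher in DOX(-), some named after their values were seen, were EPOR, the erythropoietin receptor (0.649 and 0.416 FPKM), and RHCE (0.147 and 0.0658 FPKM) among the low ones, and among those that reached 1 FPKM SPTB (1.204 and 0.848 FPKM) and the blood group gene KEL (1.69 and 1.31 FPKM), beside EPB41. The intervals of EPOR, RHCE and KEL held equal levels on both transcripts, and that of SPTB did so on the shortest (0.545 to 3.82) and not on the longest (1.15 to 1.76).

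GATA1, the master factor of erythroid genes, was at 0.207 and 0.494 FPKM, a ratio of 0.419 whose interval of 0.0949 to 1.45 held equal levels. Of the 6 globin regulators under 1 FPKM, 5 were higher by plain FPKM in DOX(+), beside 57.8% of all protein-coding genes in this range. Among them were GATA2 (0.358 and 0.664 FPKM) and TAL1 (0.118 and 0.289 FPKM), both named after their values were seen. The ratio intervals of GATA2 (0.0994 to 2.27) and TAL1 (0.000149 to 27.7) held equal levels on the shortest transcript. On the longest they left them out (0.299 to 0.940 and 0.175 to 0.875). The summed fragments of the 6 regulators gave a ratio of 0.596 (0.306 to 1.12) on the shortest transcripts and 0.661 (0.528 to 0.826) on the longest. Equal levels thus lay inside the first interval and outside the second. In these bulk libraries fewer cells that express a gene and less RNA in each cell cannot be told apart, for HBA1 and HBG1 as for the erythroid markers. The part of these markers in the globin difference was not tested.

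**Figure D3:**
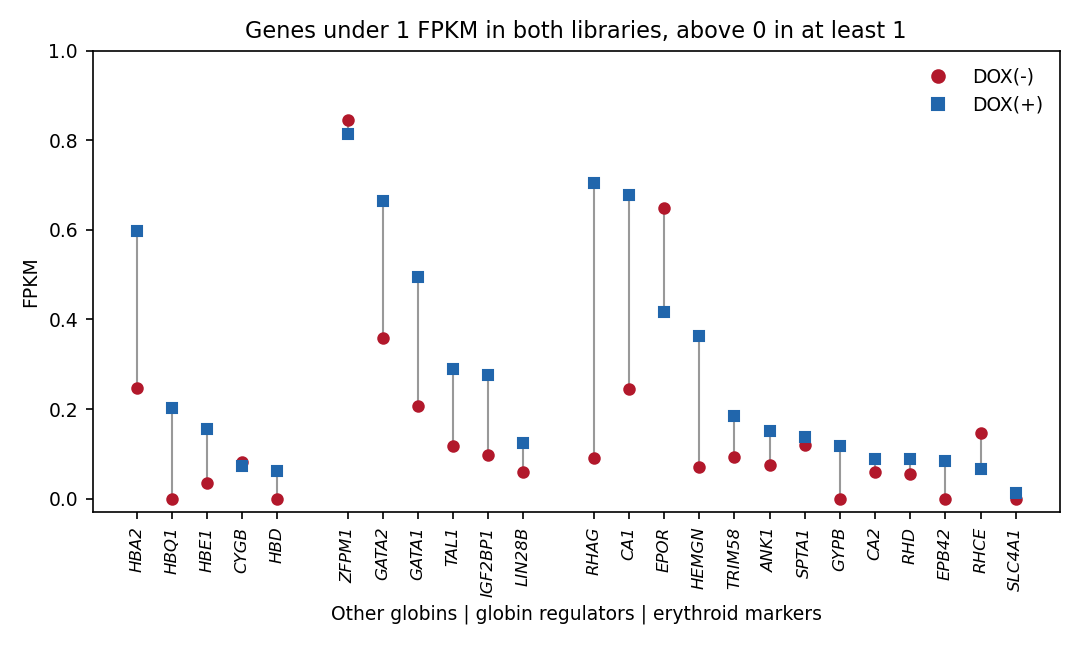
FPKM (linear axis) of other globins, globin regulators and erythroid markers that were above 0 in at least 1 library and under 1 FPKM in both, with red circles for DOX(-), blue squares for DOX(+) and a line joining the values of a gene. The blue square is the higher one for 11 of 13 erythroid markers, 5 of 6 regulators and 4 of 5 globins. Over all 4632 protein-coding genes in this range, DOX(+) was higher for 57.8%.

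Among the mitochondrial carriers and partners of heme synthesis, 2 were higher in DOX(-) and none was lower by the size rule, of 15 compared (median log2 difference -0.04). Over all 11525 genes compared, 3.11% were higher and 4.06% lower by this rule. SLC25A28, mitoferrin 2, which brings iron into mitochondria, was at 12.3 and 6.45 FPKM, a ratio of 1.90 (1.40 to 2.59). TMEM14C, an inner membrane protein needed to move the porphyrin intermediate, was at 10.7 and 6.37 FPKM, a ratio of 1.68 (1.18 to 2.40). SUCLG2, a subunit of the succinyl-CoA ligase, was at 27.1 and 18.1 FPKM, with a log2 difference of 0.56 that passed the size rule under upper-quartile scaling. ABCB10, a transporter of the inner mitochondrial membrane, was at 8.15 and 10.3 FPKM (ratio 0.793, 0.591 to 1.06 on the shortest transcript and 0.708 to 0.889 on the longest). SLC25A38, which supplies mitochondrial glycine for the ALAS reaction, was at 27.97 and 29.9 FPKM (ratio 0.934, 0.751 to 1.16).

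Genes of heme breakdown, export and uptake held no member past the size rule, of 9 compared (median log2 difference 0.07). HMOX1, the inducible heme oxygenase that opens the heme ring, came nearest at 3.999 and 6.24 FPKM. Its ratio of 0.641 had an interval of 0.417 to 0.971, and the log2 difference of -0.53 passed the size rule when the libraries were rescaled without mitochondrial genes. The constitutive HMOX2 was at 7.02 and 7.45 FPKM (ratio 0.942, 0.656 to 1.35). FLVCR1, a heme exporter, was at 4.32 and 6.04 FPKM, the biliverdin reductase gene BLVRB at 16.1 and 13.1 FPKM and the heme transporter gene SLC48A1 at 2.14 and 1.64 FPKM, and the intervals of these ratios held equal levels with the shortest transcript. On the longest, those of FLVCR1 (0.632 to 0.809) and BLVRB (1.062 to 1.434) left out equal levels.

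Among heme sensors and regulators, 1 of 10 genes compared was lower in DOX(-) and none was higher by the size rule (median log2 difference -0.12). Of all genes compared, 4.06% were lower and 3.11% higher. The lower gene was MAFK, which encodes a small MAF protein that pairs with BACH1 or NRF2 at the control elements of HMOX1 and globin genes. MAFK was at 1.09 and 3.85 FPKM. Its ratio of 0.282 had an interval of 0.133 to 0.548. BACH1, the heme-binding repressor, was at 4.201 and 5.78 FPKM and NFE2L2, which encodes NRF2, at 2.40 and 3.12 FPKM, and the intervals of both ratios held equal levels with the shortest transcript and left them out with the longest (0.639 to 0.825 and 0.600 to 0.982). EIF2AK1, the heme-regulated eIF2 kinase HRI, was at 42.6 and 37.5 FPKM (ratio 1.14, 0.988 to 1.31 on the shortest transcript and 1.083 to 1.196 on the longest). NRF1, the factor whose core motif lies in the ALAS1 window printed above, was at 3.06 and 3.64 FPKM (ratio 0.842, 0.486 to 1.44).

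Of 15 heme proteins and factors of heme attachment compared, 1 was higher in DOX(-) and none lower by the size rule (median log2 difference -0.15). The shares over all genes compared were 3.11% higher and 4.06% lower. CYB5B, the cytochrome b5 of the outer mitochondrial membrane, was at 5.68 and 1.86 FPKM, a ratio of 3.05 (1.795 to 5.38). CAT, the heme enzyme catalase, was at 74.5 and 111.3 FPKM, a ratio of 0.669 (0.592 to 0.755). Its log2 difference of -0.57 fell just short of the size rule and passed it when rescaled without mitochondrial genes. CYC1, cytochrome c1, was at 72.1 and 55.0 FPKM and CYCS, cytochrome c, at 29.02 and 36.5 FPKM, so these partners of the respiratory chain differed in opposite directions, and neither was past the size rule.

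**Figure D4:**
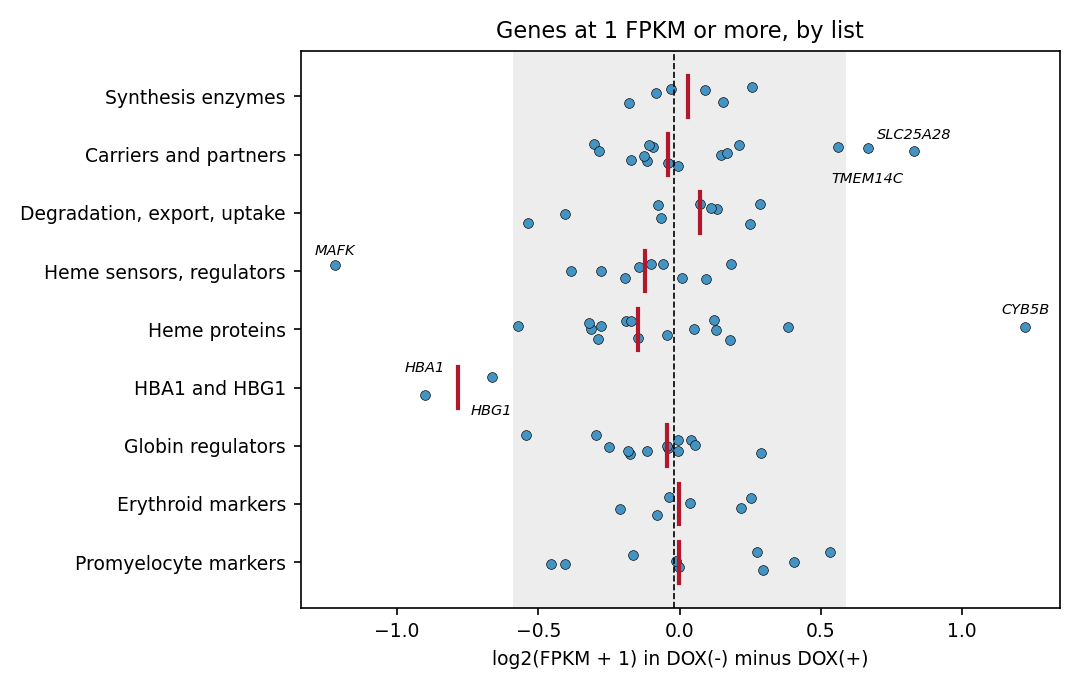
Difference in log2(FPKM + 1), DOX(-) minus DOX(+), for the genes of each list at 1 FPKM or more in at least 1 library, 1 point per gene, with red bars for list medians, a dashed line for the median of all genes compared (-0.02) and a grey band for differences within 1.5-fold. All 6 synthesis enzymes compared lie inside the band, and the genes outside it are HBA1, HBG1, MAFK, CYB5B, SLC25A28 and TMEM14C.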

How the data were processed

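RNA of 2 libraries was compared, 1 per condition. Per the file headers, the authors deposited FPKM for each gene. StringTie 1.3.4b, HISAT2 2.1.0, CASAVA 1.8 and edgeR, and GRCh38 and hg38, are listed without roles in the submitters' processing notes. The annotation release was not given in the sources used here; transcript lengths came from GENCODE release 29, which has the same locus for 6 of the 9 genes (not UROS, CPOX and HBG1).

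Levels were compared as log2(FPKM + 1) for genes that reached 1 FPKM in at least 1 library. A pseudocount of 1 FPKM pulls low genes towards 0. Depth was recovered from FPKM steps in genes with 1 transcript: 99.5% of 5591 values up to 100 fragments in DOX(-) and 99.6% of 5976 in DOX(+) were whole within 0.02 fragment. Level intervals are exact Poisson, and ratio intervals are exact conditional (Clopper-Pearson), on estimated fragments, which are not independent molecules. FPKM of genes with several transcripts also moves with how reads were divided between them, which was not tested. Calculations used Python 3.11.15 and scipy 1.17.1. They were also run on simulated counts, where folds and intervals were checked only for genes at a mean of 5 FPKM or more. That check did not cover ALAD, UROS, PPOX, HBA1 or genes under 1 FPKM, nor the estimate of fragments where transcript length is uncertain.

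The genes and the 10 lists (126 symbols) were chosen with earlier results of these data known. Named genes are the 9, the 4 with the largest difference in each list that reached 2 FPKM, and symbols fixed with the lists; others are marked. Some further genes are not reported here and were left out of the lists and their counts. Alternatives covered the pseudocount, filter, size rule, 4 scalings, transcript length and sums of copies.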

Additional observations from a re-analysis of the deposited data

How the results depend on the processing

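The count of 2 genes lower in DOX(-), HBA1 and HBG1, became 0 with a pseudocount of 5 FPKM and 0 with a 2-fold rule, and it was 1 (HBG1) with a filter of 5 FPKM. Under pseudocounts of 0.1 and 0.5 FPKM, the 4 scalings, a looser size rule, no filter, and the demand that the counting interval leave out equal levels, it was 2, with the same genes. No gene of the 9 was past the rule in the other direction under any of these. The scalings moved the median log2 difference of all genes by -0.06 to 0.04. Mitochondrial genes held 22.5% of the summed FPKM in DOX(-) and 27.7% in DOX(+). When the libraries were rescaled without these genes, the median log2 difference of the 6 enzymes compared was -0.04 in place of 0.03. Depth limits PPOX and the genes under 1 FPKM most. No replicate could be left out, and no paired analysis was possible because each condition has 1 library.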
